A study of Mus musculus with 3 samples.

Results

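The genes for proteins of the cytosolic ribosome were followed through cochlear organoids of the mouse, small 3-dimensional cultures raised from progenitors of the inner ear. The members are the genes whose symbol begins with Rpl or Rps and a digit, without the Rps6k kinases and the pseudogene names that contain "-ps". This rule took 82 of the 31053 genes in the deposited table, 33 of them named Rps for the small subunit and 49 named Rpl for the large subunit. It uses names and no measured value. It also takes Rps19bp1, which is named as a binding partner of Rps19, and it misses ribosomal proteins with other names (such as Rplp0, Rplp1, Rplp2, Rpsa, Fau and Rack1), which are described at the end.

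The organoids came from Lgr5+ progenitors of strain C57BL/6, and 3 libraries were made, 1 for each group. The expansion group was collected at passage 2, day 8, in a DMEM/F-12 medium with N2, B27, EGF, bFGF, IGF, CHIR99021, Y-27632 and LPA. The other groups had been moved to a medium with LY4115775, RA, A83-01, Shh, BDNF and bFGF, and were collected on differentiation day 5 and day 25, LY4115775 having been withdrawn after the first 5 days. All 3 were dissociated with trypsin and sorted for single living cells by DAPI. No animal or culture is named for a library, so each group is 1 sample, no difference between groups has a replicate check, and no test between groups was made. Intervals below are 95%. Those of shares, counts and ratios cover counting error only. Those of differences between medians treat the cells of 1 library as independent draws, and cells are not replicates of a group.

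A ribosome joins a small and a large subunit, each built of ribosomal RNA and many proteins, most of them needed in equal numbers. Their mRNAs are among the most abundant in growing cells. Most of them begin with a C and a run of pyrimidines, the 5′ terminal oligopyrimidine tract, through which the growth kinase mTORC1 sets how strongly they are translated. In the cochlea the progenitors that divide lie in the epithelium, while hair cells, the sensory cells marked by the transcription factor Pou4f3, have left the cell cycle.

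The region around the transcription start was read for the members whose values carry the results, to look for the tract that many mRNAs of this kind are known to carry. RefSeq start regions (build GRCm38.p6) were given for 63 of the 82 members. A C followed by at least 4 further C or T bases was sought on the gene's strand, beginning within 5 bases of the annotated start. It was present in 29 of these 63 members (46.0%), against 5718 of all 27025 genes with a start region (21.2%). A gene counted when any of its listed start regions held a match. Each line below shows 30 bases, 15 before the annotated start and 15 from it on, 5′ to 3′, with the matching run in capitals where one was found (that of Rpl13a goes on past the window).
Rps18, chr17:33955651-33955680, minus strand: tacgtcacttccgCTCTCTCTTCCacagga
Rpl13a, chr7:45128731-45128760, minus strand: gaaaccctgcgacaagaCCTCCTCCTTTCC
Rpl12, chr2:32961697-32961726, plus strand: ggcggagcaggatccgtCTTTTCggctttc
Rps2, chr17:24720048-24720077, plus strand: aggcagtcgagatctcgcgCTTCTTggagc
Rpl22l1, chr3:28805493-28805522, plus strand: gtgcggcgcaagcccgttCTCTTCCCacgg
Rpl10, chrX:74270801-74270830, plus strand: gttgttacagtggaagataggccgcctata
Rpl4, chr9:64173372-64173401, plus strand: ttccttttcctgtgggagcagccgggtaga
Rpl41, chr10:128549154-128549183, minus strand: cacacgggccggctcggaagtgacgacacc
Rps25, chr9:44407699-44407728, plus strand: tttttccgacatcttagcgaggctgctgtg
The windows of Rpl10, Rpl4, Rpl41 and Rps25 hold no match to this search at the annotated start. That says only that these letters are not at this position of this window. The Rpl4 window holds a run of C and T bases before that position. The start of Rpl4 in another annotation, GENCODE M21, is chr9:64173375 and lies in this run. For Rpl4 the outcome thus depends on which start is taken. The windows were picked for members named below, and the presence of a run was not set against their values.

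Cells with at least 500 genes and at most 20% of their counts from mitochondrial (mt-) genes were kept, 27996 in expansion, 13850 on day 5 and 6264 on day 25. They held 206041930, 139807302 and 75301271 unique molecular identifiers (UMIs, 1 per captured transcript), at medians of 4935, 5962 and 8585 per cell. A median of 77, 76 and 76 of the 82 members had a UMI in a cell. Between 21 and 121 cell barcodes were shared by a pair of libraries. Called doublets were kept, as the rule for kept cells has no doublet step, and the values without them stand in the closing section.

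Of all UMIs of the expansion cells the members held 31.5% (31.5304%, interval 31.524% to 31.5367%), 21.7% on day 5 (21.6615%, 21.6547% to 21.6684%) and 14.5% on day 25 (14.5047%, 14.4968% to 14.5127%). The share was thus 1.46-fold lower on day 5 than in expansion, and 2.17-fold lower on day 25 than in expansion. Per cell, the median share was 32.1% in expansion, with 5% of cells below 24.2% and 5% above 40.4%. On day 5 the median was 20.8% (5th to 95th percentile 10.7% to 27.9%), and on day 25 it was 14.5% (4.71% to 22.7%). The upper 95th percentile of day 25 therefore lay below the 5th percentile of expansion, so the bulk of the cells of these 2 libraries did not overlap.

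The subunits kept their proportion: Rps genes held 46.0%, 45.3% and 46.1% of the family's UMIs in the 3 libraries. In Epcam-positive cells (defined below) the median number of family UMIs per cell was 2155, 1387 and 1371.5, and the median number of all other UMIs was 4873, 5272 and 7615.5. In Otor-high cells the family had 1487.5, 1412.5 and 1340 UMIs per cell and all other genes 2404.5, 4693 and 6284. In Pou4f3-positive cells the family had 2137, 1416.5 and 1131 and all other genes 5721, 8175.5 and 8975. From expansion to day 5 the family's UMIs were thus lower in Epcam-positive and Pou4f3-positive cells and nearly level in Otor-high cells. The other UMIs were more numerous on day 5 in all 3 classes. These numbers were not corrected for the depth of each library. Fewer transcripts of the family and more transcripts of other genes cannot be told apart from a share alone.

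Other features differed between the same libraries. Mitochondrial genes held 5.95%, 4.26% and 6.05% of UMIs, and without them the family's share was 33.5%, 22.6% and 15.4%. The nuclear RNA Malat1 held 1.10%, 3.73% and 2.61%. All 10 immediate early genes of a fixed list, which respond to stimulation and to dissociation, were past 2-fold higher on day 5 and on day 25 than in expansion. Of all genes tested in these pairs, 15.3% and 33.5% were. Junb, for example, had 86.3, 1028 and 1144 CPM (a gene's UMIs per 1000000 UMIs of the library). Across the cells of a library the family's share was lower where the mitochondrial share was higher (Spearman rho -0.46, -0.49 and -0.69 over 27996, 13850 and 6264 cells, the shares having the same denominator). The part of these features in the family's lower share in the later libraries was not tested.

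Cells were then divided by 3 genes that are no members. Pou4f3-positive cells had at least 2 UMIs of Pou4f3, Otor-high cells had Otor, a gene of the otic mesenchyme, at 20 or more in 10000 UMIs, and Epcam-positive cells, marked by an epithelial adhesion protein, had at least 2 UMIs of Epcam. The rules were applied in this order, so a cell enters 1 class. Pou4f3-positive cells numbered 169, 374 and 1621, Otor-high cells 2630, 4908 and 375, and Epcam-positive cells 16687, 6799 and 3748. Cells close to a rule were common: 132, 452 and 321 cells had exactly 1 Pou4f3 UMI, 1146, 244 and 57 had Otor between 15 and 20 in 10000, and 103, 206 and 1186 Pou4f3-positive cells also met the Epcam rule. Free RNA in a droplet can lift a cell over these limits, and its part was not tested.

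The classes carried the markers of their names. In Pou4f3-positive cells 11 of 12 hair cell markers reached 20 CPM in every library, with a summed level of 2857, 6784 and 7747, against 106, 116 and 217 in Epcam-positive cells. Pou4f3 is among the 12, so part of this count and of these sums was set by the class rule. In Otor-high cells 7, 7 and 9 of 10 otic mesenchyme markers reached that level, but Col1a1 was at 0 in expansion and on day 25, and the endothelial gene Emcn stood at 561, 597 and 720 CPM, so the class is called here by its gene. Otor is among the 10 and was high by the rule. Erythroid and macrophage markers were at or near 0 in all 3 classes.

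Over all cells of a class, the Otor-high cells had the highest median share of the 3 classes in every library. The Epcam-positive cells came next, then the Pou4f3-positive cells. In shallow cells of the later libraries this order did not hold, as given below. In expansion the medians were 37.1% in Otor-high, 30.4% in Epcam-positive and 26.6% in Pou4f3-positive cells. On day 5 they were 22.5%, 19.9% and 16.8%, and on day 25 they were 17.5%, 14.5% and 11.4%. The ranges from the 25th to the 75th percentile overlapped between neighbouring classes in each library except Otor-high and Epcam-positive cells in expansion, at 34.1% to 39.7% and 28.0% to 32.7%. Otor-high cells were above Epcam-positive cells by 6.75 percentage points in expansion (interval 6.52 to 6.93), 2.52 on day 5 (2.35 to 2.70) and 2.92 on day 25 (2.50 to 3.30). These intervals reflect the spread of cells within 1 library and not that between cultures. With the UMIs of a class pooled, the shares were 36.6% and 30.4% in expansion and 17.7% and 15.4% on day 25. On day 5 the pooled shares lay closer, at 22.5% and 21.7%.

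**Figure D1:**
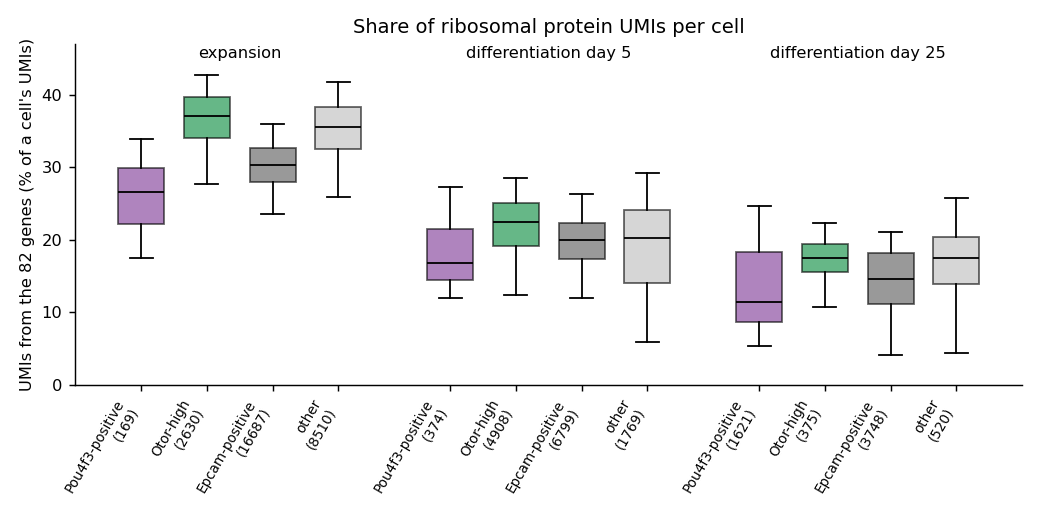
Percentage of a cell's UMIs that came from the 82 ribosomal protein genes, by library and cell class, with the number of cells in brackets. Boxes span the 25th to 75th percentile with the median as a line, whiskers reach the 5th and 95th percentile, and the medians of each class step down from expansion to day 5 to day 25, and Otor-high cells stand above Epcam-positive cells in each library.

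The median of each class, over all its cells, was lower on day 5 than in expansion and lower again on day 25. At 4000 to 8000 UMIs per cell this did not hold for the second step in Pou4f3-positive cells, which had 25.1%, 17.4% and 19.1%. In Epcam-positive cells the medians were 30.4%, 19.9% and 14.5%, while these cells were 59.6%, 49.1% and 59.8% of the kept cells. Pou4f3-positive cells, the class with the lowest median share over all cells, made up 0.604%, 2.70% and 25.9% of the kept cells.

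On day 5 and day 25 the share of Pou4f3-positive cells differed with the depth of the cell. On day 25 those with 8000 to 16000 UMIs had a median of 10.0% from the family, against 14.8% in Epcam-positive cells of that depth. Those with 4000 to 8000 UMIs had 19.1%, against 15.6%, so the order of these 2 classes was the opposite there. Otor-high cells of that depth had 17.0%, also below the Pou4f3-positive cells. The deeper Pou4f3-positive cells had a median mitochondrial share of 10.0% and the shallower ones 1.40%. Both held hair cell markers, with a summed level of 7566 CPM in cells with 8000 or more UMIs (1001 cells) and 8848 in shallower cells (620 cells). The sum includes Pou4f3, by which these cells were chosen, and the same number of its UMIs gives more CPM in a shallower cell. The part of depth and of mitochondrial RNA in the difference was not tested. On day 5 the Pou4f3-positive cells of 8000 to 16000 UMIs had 14.5% (mitochondrial share 8.44%) and those of 2000 to 4000 UMIs 22.2% (1.08%), a split of the same direction. Otor-high and Epcam-positive cells of day 5 with 2000 to 4000 UMIs had 17.2% and 15.4%, so the Pou4f3-positive cells stood highest there. In expansion the order by depth of the Pou4f3-positive cells was the opposite, with 25.1% at 4000 to 8000, 26.6% at 8000 to 16000 and 28.6% at 16000 or more UMIs, in 72, 61 and 25 cells.

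Shallow Epcam-positive cells of day 25 were the poorest in ribosomal protein transcripts. The 354 cells with 2000 to 4000 UMIs had a median of 5.02% and a mitochondrial share of 11.7%, and the 945 cells with 4000 to 8000 UMIs had 15.6% and 4.62%. In expansion the Epcam-positive cells of these depths had 29.6% and 30.9%. For Otor-high and Epcam-positive cells of 4000 to 8000 UMIs the medians were 37.0% and 30.9% in expansion, 23.2% and 19.8% on day 5, and 17.0% and 15.6% on day 25.

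**Figure D2:**
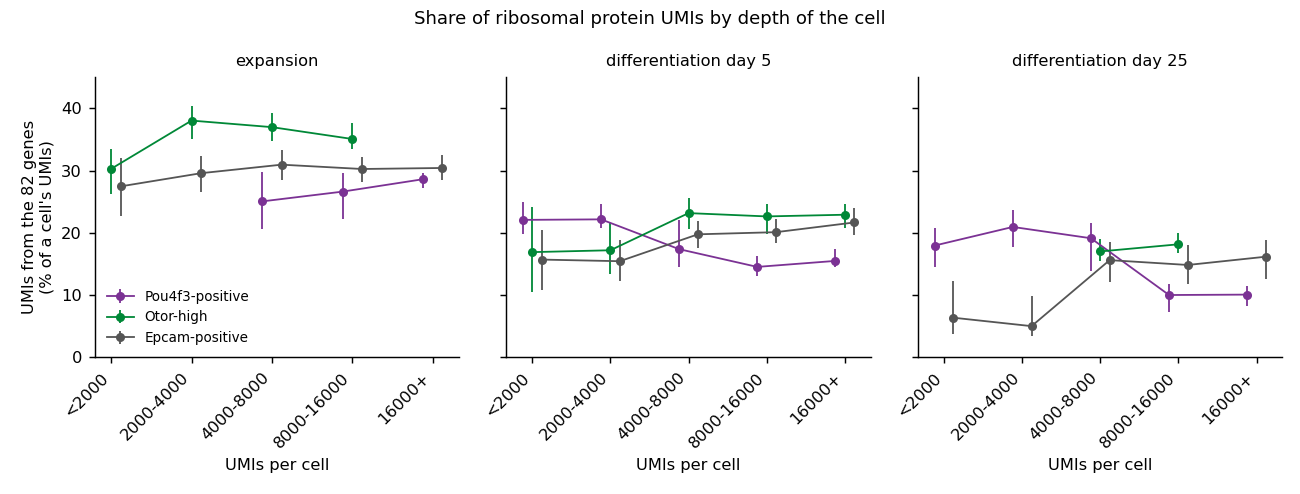
Median percentage of UMIs from the ribosomal protein genes against the number of UMIs in the cell, for 3 cell classes in each library, with bars from the 25th to the 75th percentile and classes of under 20 cells left out. Pou4f3-positive cells of day 25 sit at 20.9% with 2000 to 4000 UMIs and at 10.0% with 8000 to 16000 UMIs.

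In expansion, dividing cells had the smaller share. Within the Epcam-positive cells of expansion, 8096 cells with at least 2 UMIs of the division genes Top2a and Mki67 had a median of 29.6%, and the 8591 others had 31.3%. At 4000 to 8000 UMIs per cell the medians were 29.1% and 31.9%, and at 8000 to 16000 UMIs they were 29.6% and 31.5%. In the later libraries few Epcam-positive cells met the rule and the order was the opposite: 19 cells had 25.3% against 19.9% on day 5, and 7 cells had 15.6% against 14.5% on day 25. These few cells were deeper than the others, with medians of 19895 and 27639 UMIs against 6612 and 8976.

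Levels of single members are given as CPM of the summed kept cells. The kit counts 1 tag at the 3′ end of a transcript, so levels of different genes need no correction for length. A UMI was found for all 82 members in expansion and on day 5 and for 81 on day 25, and 79 reached 20 CPM in each library. The median member stood at 4184, 2676 and 1894 CPM. The members at 1000 CPM or more numbered 70, 63 and 56.

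The member with the highest mean was Rpl41, which encodes the smallest protein of the large subunit, at 11220 CPM in expansion, 6067 on day 5 and 3758 on day 25. Rps20, of the small subunit head, followed with 9230, 7646 and 3478. Rpl13 stood at 7991, 6119 and 4272, and was the highest member on day 25. Rps24 had 7393, 6758 and 3930, Rps29 had 7805, 5729 and 3296, and Rps27a, which is made as a fusion with ubiquitin, had 7706, 5323 and 3564. These 6 were lower in each later library. In each library the 6 most abundant members held 16.4%, 17.5% and 15.7% of the family's UMIs.

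**Figure D3:**
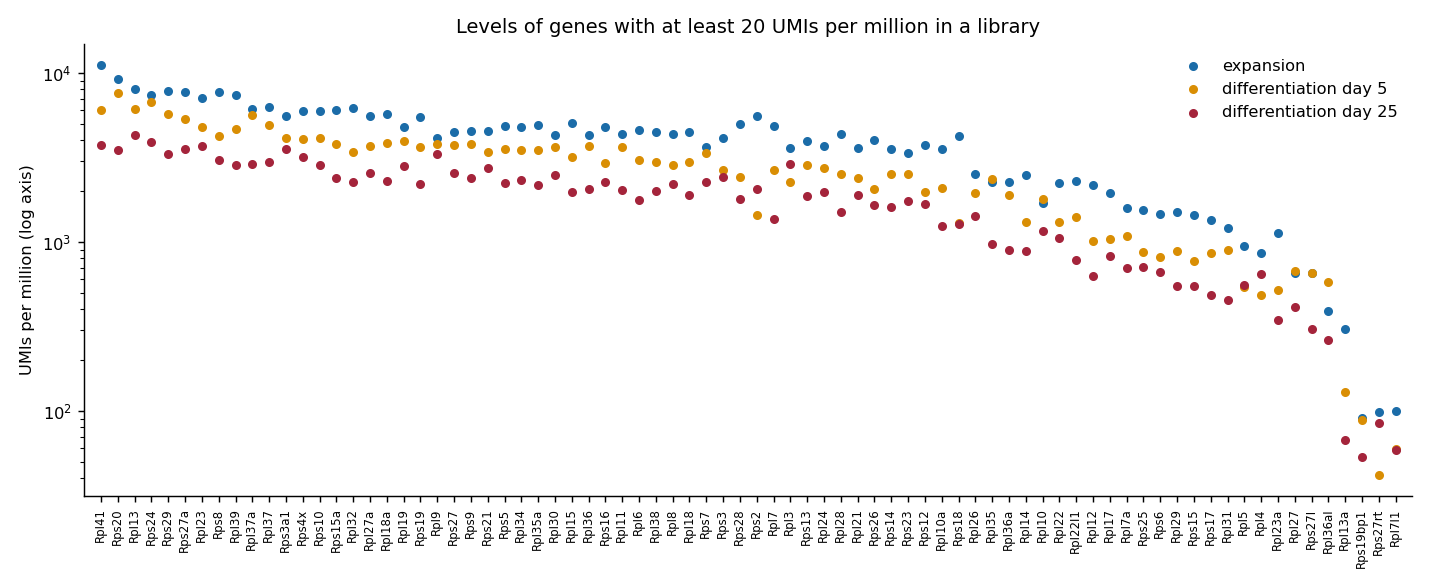
Level of the members with at least 20 CPM in a library, on a log axis, ordered by their mean over the 3 libraries, with 1 member not drawn. At each step 74 of the 79 members are lower in the later library, and Rps2, Rpl3, Rpl4, Rpl5 and Rps27rt are the 5 that are higher on day 25 than on day 5 (Rpl5 by a log2 ratio of only 0.05, less than the shift of either other scaling).

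The paralogs and near-namesakes stood below the family's median member in each library, and some had only a few UMIs. Rpl22l1, the paralog of Rpl22, stood at 2285, 1410 and 780 CPM, close to Rpl22 at 2245, 1317 and 1050 CPM. Rps27l had 656, 657 and 306 CPM and Rpl36al had 390, 578 and 265 CPM, below Rps27 (4470, 3737 and 2557 CPM) and Rpl36a (2271, 1898 and 892 CPM). Rpl7l1 had 99.3, 59.4 and 58.3 CPM and Rps19bp1 had 90.2, 88.9 and 53.5 CPM. The 3 members under 20 CPM were paralogs known from other organs, the muscle paralog Rpl3l with 4, 3 and 1 UMIs, the testis paralog Rpl10l with 5, 3 and 0 UMIs, and Rpl39l with 51, 28 and 13 UMIs. For the count of 0 of Rpl10l on day 25 the interval reaches up to 0.0490 CPM.

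Between pairs of libraries a member was called when its CPM + 1 differed by 2-fold or more, among genes at 20 CPM or more in either library. On day 5 against expansion 0 of 79 members were higher and 7 were lower, Rps2, Rps18, Rpl13a, Rps27rt, Rpl23a, Rpl12 and Rps28. Of all 6416 genes, 15.3% were called higher and 7.81% lower in that pair. At this scaling the members' count of lower calls was near the background. With TMM scaling 28 members were called lower, where 13.8% of all genes were, and with median of ratios scaling 32, where 14.4% were. In CPM 74 of the 79 lay below a ratio of 1, and their median log2 ratio was -0.58, against 0.19 over all genes.

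On day 25 against day 5, 1 member was called higher, Rps27rt, and 6 were called lower, among them Rpl35, Rps20, Rps27l, Rpl36al and Rpl36a. The background was 21.1% higher and 5.82% lower of 7184 genes. With TMM scaling 24 members were called lower (12% of all genes), and with median of ratios scaling 17 (10.3% of all genes). The call of Rps27rt was lost under both scalings and with CPM + 5. The members' median log2 ratio was -0.59, against 0.31 over all genes, and again 74 of 79 members lay below 0.

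On day 25 against expansion 52 of the 79 members were called lower and 0 higher, where 9.12% of 7283 genes were called lower and 33.5% higher. All 79 lay below 0, from -2.16 for Rpl13a to -0.21 for Rps27rt, with a median of -1.12 against 0.51 over all genes. The counts came to 22 of 33 small subunit members and 30 of 46 large subunit members. By place in the ribosome, 13 of 14 members of the small subunit head and 6 of 8 at the exit of the peptide tunnel were called lower. Of 18 genes mutated in Diamond-Blackfan anaemia, an inherited failure of red cell production, 12 were called lower, with a median of -1.20. These pairs share libraries, so their counts are not independent of each other.

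The family did not scale as 1 block, and a few members departed from it. A departure is the ratio of a member's share of the family's UMIs between 2 libraries, so that 1 means that it moved with the family. On day 5 against expansion 7 of 79 members departed by 1.5-fold or more, 3 above and 4 below the family. On day 25 against day 5 there were 6, of which 5 were above, and on day 25 against expansion 8, of which 4 were above. Over all genes, 42.4%, 50.1% and 59.8% were 1.5-fold or more from the median gene in the 3 pairs. That is a different measure, since members are set against their own family's total, so it does not compare directly with the members' counts. With the members left out that have a near-identical copy in the table, 1 in place of 7 remained on day 5 against expansion and 4 in place of 8 on day 25 against expansion. That setting also drops members whose copies held very few UMIs, such as Rpl13a. With the copies' UMIs added to their members instead, 6, 6 and 7 members departed in the 3 pairs. Across the 79 members the order of levels in expansion and on day 25 had a Spearman rho of 0.897, a description over genes that are not independent.

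Rps2 (ENSMUSG00000044533, chr17:24718116-24721929), a protein of the small subunit near the mRNA entry, departed most on day 5. It held 17.6, 6.68 and 14.2 of 1000 family UMIs in expansion, day 5 and day 25, or 5553, 1448 and 2059 CPM. Its share of the family on day 5 was 2.63-fold lower than in expansion (2.62 to 2.65), and on day 25 it was 2.12-fold higher than on day 5 (2.11 to 2.14). The dip was present in each class, at 6.75 per 1000 in Epcam-positive, 6.37 in Otor-high and 8.00 in Pou4f3-positive cells of day 5, against 17.9, 16.3 and 18.9 in expansion.

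Rps18 (ENSMUSG00000008668, chr17:33951999-33956001), a protein of the small subunit head, followed with 13.4, 5.99 and 8.75 per 1000 family UMIs and 4222, 1298 and 1269 CPM. Its share was 2.24-fold lower on day 5 than in expansion (2.22 to 2.25) and 1.46-fold higher on day 25 than on day 5 (1.45 to 1.47). The low point on day 5 depended on which of a set of near-identical genes received the UMIs. Gm10260, a gene whose transcript end is at least 95% alike, held 181, 821 and 110 CPM, and thus 4.10%, 38.7% and 7.97% of the UMIs of the pair. With Gm10260 and Gm11361 added, Rps18 held 13.96, 9.80 and 9.54 per 1000, and the ratio to expansion was 0.702 on day 5 and 0.683 on day 25, both within 1.5-fold. The ratio of day 25 to day 5 was then 0.974.

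Such copies are common in the family, and a read that fits 2 genes equally can be lost or assigned to either. Of the 82 members, 68 had at least 1 other gene in the GENCODE M21 annotation with an end that was alike, with a median of 5, and 20 had one with a row in the table (for Rpl7l1 most of these hits are to genes with unrelated names). Rps2 had 45, of which 44 are pseudogenes and none has a row, so their part in the day 5 value of Rps2 was not tested. For Rpl41 the copy Gm10076 held 634, 1135 and 135 CPM, and the pair together held 37.5, 32.9 and 26.8 per 1000. Members with no such copy departed too. Of the 11 tested, 0, 1 and 2 were past 1.5-fold in the 3 pairs, and Rpl4 and Rpl12 are among them.

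Rpl12, which lies at the base of the large subunit stalk (ENSMUSG00000038900, chr2:32961559-32965345), has no such copy. It held 6.92, 4.68 and 4.33 per 1000 family UMIs, and 2183, 1013 and 627 CPM. Its share on day 25 was 1.60-fold lower than in expansion (1.59 to 1.62), with most of the difference already present on day 5. Rpl13a, known also for a role in silencing mRNAs in inflammation, held 0.968, 0.595 and 0.466 per 1000 and 305, 129 and 67.6 CPM. Its share was 2.08-fold lower on day 25 than in expansion (2.02 to 2.14), the largest such difference of the 79 members. Rpl13a has 4 alike genes, of which 2 have a row in the table, and these were under 1 CPM. The part of the alike genes without a row was not tested. Rpl7 held 15.4, 12.3 and 9.38 per 1000, and its share was 1.64-fold lower on day 25 than in expansion (1.63 to 1.65). Rpl23a, with 24 alike genes elsewhere in the genome, had 1123, 517 and 345 CPM and a ratio to expansion of 0.670 on day 5 and 0.668 on day 25. All 4 were lower than the family in both later libraries.

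Members that held up better than the family on day 25 included 4 proteins of the large subunit. Rpl3 (ENSMUSG00000060036, chr15:80077791-80091868), which lies at the catalytic centre, held 11.4, 10.5 and 19.8 per 1000 family UMIs and 3597, 2274 and 2876 CPM. Its share on day 25 was 1.89-fold higher than on day 5 (1.88 to 1.90). Rpl4, of the peptide tunnel, held 2.74, 2.23 and 4.43 per 1000 and 864, 484 and 643 CPM, a share 1.98-fold higher on day 25 than on day 5 (1.96 to 2.01). Rpl5, which carries the 5S RNA, held 3.00, 2.49 and 3.86 per 1000, and its share was 1.55-fold higher on day 25 than on day 5 (1.53 to 1.57). For these 3 the day 25 share was the highest of the 3 libraries and the day 5 share the lowest. Rpl9 instead stepped up in both later libraries, with 13.0, 17.4 and 22.8 per 1000 and 4104, 3778 and 3313 CPM. In CPM each of these 4 was still lower on day 25 than in expansion.

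Day 5 had its own members above the family. Rpl36al held 1.24, 2.67 and 1.82 per 1000 family UMIs, and its 578 CPM on day 5 lay above the 390 CPM of expansion. Its share was 2.16-fold higher than in expansion (2.14 to 2.18). Rpl10, which joins the large subunit late in its assembly (ENSMUSG00000008682, chrX:74270812-74273135), held 5.37, 8.27 and 7.99 per 1000, a share 1.54-fold higher on day 5 than in expansion (1.53 to 1.55). Rpl35 held 7.22, 10.9 and 6.73 per 1000. Its share was 1.504-fold higher on day 5 than in expansion (1.497 to 1.510), a call that was lost at 1.48-fold once its copies Gm10269 and Gm2000 were added. Rps20, with no such copy, held 29.3, 35.3 and 24.0 per 1000 family UMIs. It was among the lowest of the family on day 25 against day 5, at 0.679.

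Rps27rt held only 97.9, 41.6 and 84.3 CPM, and its share on day 25 was 3.03-fold higher than on day 5 (2.92 to 3.14). Its transcript end is alike with that of Rps27, a member with many more UMIs. The pair summed held 14.5, 17.4 and 18.2 per 1000 family UMIs and differed by 1.20-fold, 1.04-fold and 1.26-fold in the 3 pairs of libraries.

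**Figure D4:**
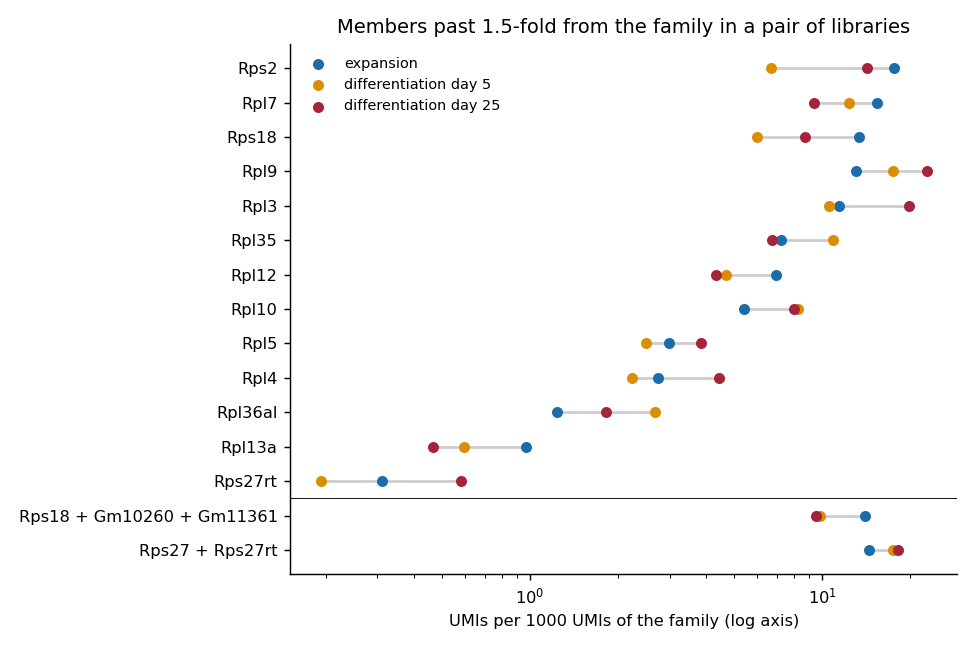
UMIs per 1000 UMIs of the family, on a log axis, for the 13 members that departed by 1.5-fold or more in at least 1 pair of libraries, with 1 point for each library. Below the line, Rps18 and Rps27rt are summed with the genes whose transcript ends are alike, and the day 5 point of Rps18 then lies beside that of day 25.

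Within a library the make-up of the family also differed between classes, and here the cells share 1 preparation. In Pou4f3-positive against Epcam-positive cells the departures ran from 0.847 to 1.24 in expansion, from 0.577 to 1.60 on day 5 and from 0.460 to 1.57 on day 25. The range was narrowest in expansion, with 169 Pou4f3-positive cells. From the 10th to the 90th percentile of the members it was 0.900 to 1.09 there, 0.801 to 1.40 on day 5 and 0.788 to 1.37 on day 25.

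Rpl10 was the lowest of the family in Pou4f3-positive cells on both day 5 and day 25. It held 4.61 per 1000 family UMIs in Pou4f3-positive and 8.00 in Epcam-positive cells on day 5, a share 1.73-fold lower (1.68 to 1.79). On day 25 it held 4.16 and 9.03, a share 2.17-fold lower (2.13 to 2.22), and in expansion 4.66 and 5.35, 1.15-fold lower (1.10 to 1.20). On day 25 its value changed little with depth in Pou4f3-positive cells, at 4.197 and 4.143 per 1000 below and above 8000 UMIs. In Epcam-positive cells of day 25 it was higher in the shallower cells, at 10.2 against 8.84. On day 5 it was higher in the shallower cells of both classes, at 5.05 against 4.55 in Pou4f3-positive and 9.82 against 7.63 in Epcam-positive cells. Its share of the family in Pou4f3-positive cells was thus much the same in the 3 libraries, at 4.66, 4.61 and 4.16 per 1000. In Epcam-positive cells this share was higher in the later libraries. These are shares of a family that was itself lower in the later libraries, and not levels in CPM.

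Rpl11 and Rpl35a, both of the large subunit, were low in the same cells. Rpl11, the partner of Rpl5 at the 5S RNA, had departures of 0.853, 0.669 and 0.516 in expansion, on day 5 and on day 25. Rpl35a had 0.915, 0.695 and 0.489. Rps12 of the small subunit had 0.849, 0.656 and 0.689. Rpl31, at 0.616 on day 25, completed the 4 lowest there.

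At the other end, Rps25, which is known for its part in translation from internal entry sites, had departures of 1.12, 1.60 and 1.501 in Pou4f3-positive cells, with 5.89 per 1000 family UMIs against 3.68 on day 5 and 6.60 against 4.400 on day 25. Rps21 had 1.24, 1.59 and 1.39, Rpl36 had 1.13, 1.48 and 1.40, and Rpl27 had 1.10, 1.52 and 1.37. Rps29 was level with the family in expansion at 0.989 and stood at 1.21 on day 5 and 1.57 on day 25. Rps19bp1 and Rpl7l1, with only 1149 and 1182 UMIs in the day 25 Pou4f3-positive cells, had 1.52 (1.42 to 1.63) and 1.45 (1.36 to 1.55) there.

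**Figure D5:**
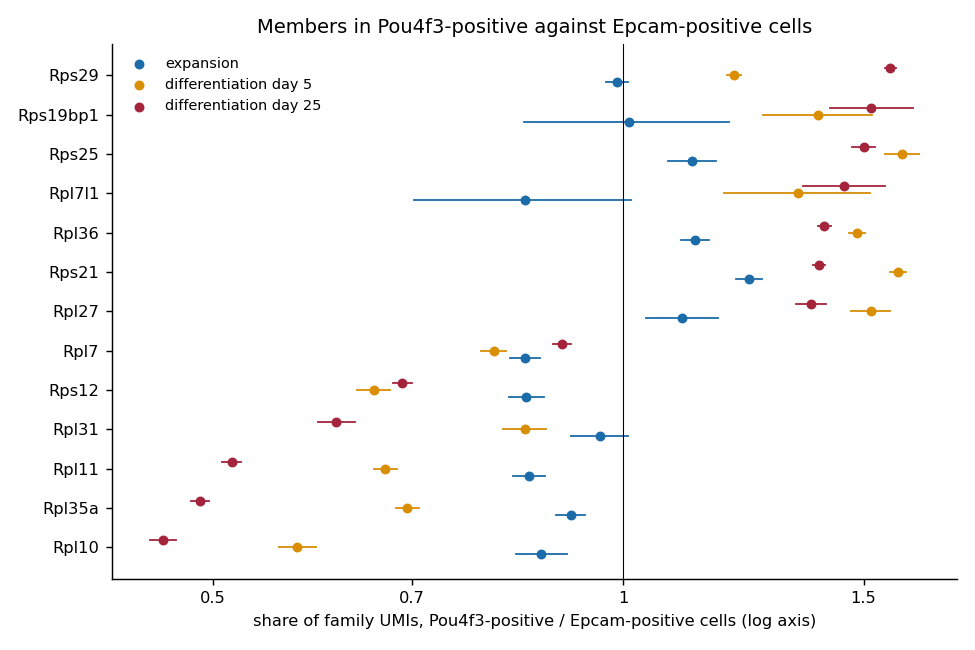
Ratio of a member's share of family UMIs in Pou4f3-positive cells to that in Epcam-positive cells of the same library, on a log axis, for the 4 members farthest from 1 in each direction in any library, with lines for the 95% counting interval. Rpl10 lies at 0.871, 0.577 and 0.460 in the 3 libraries, and Rps25 lies above 1 in each.

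Otor-high cells differed from Epcam-positive cells in other members. Rpl12 was the highest of the family in each library, with 8.35 per 1000 family UMIs against 6.48 in expansion, 6.31 against 3.94 on day 5 and 6.45 against 3.92 on day 25, departures of 1.29, 1.60 and 1.64. The drop of Rpl12 between libraries was thus present in both classes. Rps15 was high on day 5 and day 25 at 1.51 and 1.27, and Rpl13a reached 1.499 on day 25. The lowest values were 0.743 for Rps27l and 0.745 for Rpl7 in expansion, 0.759 for Rpl15 on day 5 and 0.750 for Rpl29 on day 25. On day 5 and day 25 these lay above the 0.577 and 0.460 of Rpl10 in Pou4f3-positive cells, and in expansion they lay below its 0.871.

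Ribosomal proteins whose names fall outside the rule were compared with the members. Rplp0, the stalk protein, stood at 7732, 4387 and 2066 CPM, Rplp1 at 5500, 3239 and 2715 CPM, and Rpsa at 6105, 3558 and 2461 CPM. Rplp2 stood at 3449, 2171 and 1401 CPM, Fau at 5787, 4089 and 3243 CPM, and Rack1, a scaffold protein on the small subunit, at 1773, 879 and 695 CPM. Each of these genes was lower on day 5 than in expansion and lower again on day 25.

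Other parts of the translation machinery were described by the same calls. Of 16 translation factors and further genes known for the 5′ tract, 0 were called higher and 2 lower on day 5 against expansion. Their median log2 ratio was -0.52, against 0.19 over all genes, of which 15.3% were called higher and 7.81% lower. On day 25 against day 5, 1 of the 16 was higher and 0 lower (median 0.04, all genes 0.31). In that pair 21.1% of all genes were called higher and 5.82% lower. The elongation factor Eef1a1, at 5618, 3281 and 4331 CPM, was higher on day 25 than on day 5. Of 22 ribosome biogenesis genes tested, 0 were higher and 5 lower on day 5 against expansion (median -0.60). On day 25 against day 5, 3 of 20 were higher, where 21.1% of all genes were, and 0 lower (median 0.26, all genes 0.31). Nop56, of the snoRNP, had 86.2, 33.4 and 53.7 CPM. The difference between these lists and the members was not tested.

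Mitochondrial ribosomal protein genes (Mrpl and Mrps) were near level on day 5 and lower on day 25 by their median. On day 5 against expansion 0 of 71 were called higher and 1 lower, with a median of 0.09. In that pair 15.3% of all genes were called higher and 7.81% lower. On day 25 against day 5, 0 of 72 were higher and 8 lower, where 21.1% of all genes were called higher and 5.82% lower. The mitochondrial ribosomal protein genes had a median of -0.53 there, beside the members' -0.59. Of the RNA polymerase I genes, 0 were called in either direction in the first 2 pairs, among 9 and 8 tested, beside the shares of all genes just given. Of the genes that control growth, 2 of 10 were called higher on day 25 against day 5, near the 21.1% of all genes, the transcription factor Myc at 10.9, 3.97 and 39.0 CPM and the mTORC1 activator Rheb at 105, 119 and 392 CPM.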

How the data were processed

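Droplet 3′ single-cell libraries of 3 organoid groups were used, 1 library per group. The deposited matrices hold raw UMI counts, made by the authors with Cell Ranger 3.0.1 (expansion and day 5) and 3.1.0 (day 25), as the file headers state, so counts are per the file headers. Builds GRCm38 and hg38 stand in the submitters' processing notes, and all features carry mouse identifiers. The annotation is not given in the sources used here.

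Kept cells had at least 500 genes and at most 20% mt- UMIs. Counts were summed over kept cells and scaled to CPM. Shares have exact binomial (Clopper-Pearson) intervals, ratios of 2 counts exact conditional intervals, medians order-statistic intervals, all at 95%. Folds use CPM + 1 with mt- genes left out of the background. Doublets were called with scanpy 1.11.5 (scrublet). Copies were sought with BLAST 2.17.0 in the last 300 bases of GENCODE M21 transcripts (95% identity over at least 90 bases). Coordinates are GRCm38. TMM came from edgeR 4.0.16 and was used for scaling only. Calls and intervals were tested on simulated data. Named members were the 6 highest, the 6 farthest from the family in each direction per pair, paralogs, members under 20 CPM, and the 4 farthest per class and direction. The members and lists were chosen with earlier results of these data known. No protein sequences were used here. Values of 2 genes are not reported here.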

Additional observations from a re-analysis of the deposited data

Results flagged for a closer look

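Genes outside the symbol rule, whose UMIs enter the members' values only where copies are added, held UMIs well above what a count of 0 allows. Gm10260, near-identical to Rps18, stood at 181 CPM in expansion, 821 on day 5 and 110 on day 25. Gm10076, near-identical to Rpl41, stood at 634, 1135 and 135 CPM. Gm9493, near-identical to Rps7, stood at 105, 83.9 and 47.6 CPM. Gm10260 and Gm10076 had their highest level on day 5, and Gm9493 in expansion.

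Members also differed in the direction of their departure in Pou4f3-positive against Epcam-positive cells. Rps24 was at 0.754 on day 5 and 1.07 on day 25, and Rpl3 at 0.962 on day 5 and 1.26 on day 25. With 1 library for each day, the difference between the days was not tested.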

How the results depend on the processing

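No paired analysis was possible because each group is 1 library. The share per library (31.5%, 21.7% and 14.5%) moved by more than its narrow counting interval in most settings and kept its order in all. In the order expansion, day 5, day 25 it was 31.7%, 21.8% and 15.6% with at most 10% mt- UMIs, 31.48%, 21.70% and 14.51% with at least 1000 genes, 33.5%, 22.6% and 15.4% without mt- UMIs, and 31.6%, 21.9% and 14.5% (14.5466%) with copies added. Without called doublets (6.30%, 4.69% and 2.44% of cells, against an expected 22.4%, 11.1% and 5.01%) it was 31.47% and 21.71% in expansion and on day 5, and with cells thinned to 2000 UMIs (2757, 1799 and 373 shallower cells left out) 32.3% and 20.7%. Otor-high minus Epcam-positive was 7.06 points in expansion without doublets, 7.3 and 2.8 in expansion and on day 5 when thinned, 7.14 in expansion without mt- UMIs, 4.82 (expansion) and 3.32 (day 25) at 8000 to 16000 UMIs, and 6.02, 3.40 and 1.39 at 4000 to 8000 UMIs. Pou4f3-positive minus Epcam-positive was -5.11 and -3.75 on day 5 and day 25 with stricter class rules (4 UMIs, Otor at 50 in 10000), -2.7 on day 25 when thinned, -5.58 and -4.82 at 8000 to 16000 UMIs, and -5.89, -2.39 and, reversed, 3.51 at 4000 to 8000 UMIs in the 3 libraries. On day 5 and day 25 this difference was also reversed in the depth ranges under 4000 UMIs, which were outside these settings. The cause was not tested. TMM and median of ratios scaling shifted the median of all genes to -0.18 and -0.21 on day 5 against expansion, where 28 and 32 members were then called lower in place of 7, and 24 and 17 in place of 6 on day 25 against day 5. The member called higher there, Rps27rt, was lost (0) under both scalings and with CPM + 5. Members past 1.5-fold from the family numbered 1 in place of 7 on day 5 against expansion, and 4 in place of 8 on day 25 against expansion, when members with a copy in the table were left out. With the copies' UMIs added to their members they numbered 6 and 7 in these pairs. The copy and depth settings were chosen after the data were seen. Leaving out near-identical proteins was not run. Of 99 alternatives to these answers, 57 gave the same result.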
